A study of Mus musculus with 2 samples.

Results

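Retinoic acid is a small lipid made from vitamin A that acts as a diffusible signal between cells. RDH10 oxidises retinol to retinal, DHRS3 drives the reverse reaction, and the retinal dehydrogenases ALDH1A1, ALDH1A2 and ALDH1A3 oxidise retinal to retinoic acid. The product binds the nuclear receptors RARA, RARB and RARG, which sit on DNA as dimers with retinoid X receptors (RXRs), and is removed by CYP26A1 and CYP26B1. In the urinary tract the source cells are mainly mesenchymal, and retinoic acid is known to act on the ureteric epithelium and on urothelial progenitors. ALDH1A2 marks the connective tissue below the urothelium (the lamina propria) from a fetal stage later than the one measured here. RXRs are also the dimer partners of PPARG, the nuclear receptor deleted in this study.

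The 10 genes described here are these synthetic enzymes (Aldh1a1, Aldh1a2, Aldh1a3, Rdh10, Dhrs3), receptors (Rara, Rarb, Rarg) and breakdown enzymes (Cyp26a1, Cyp26b1). They were picked by gene name and not by a measured value, but with earlier results of these data known. They account for 13 of 39429 probes on the array and 10 of 29982 genes with values, and all 10 were among the 21429 genes bright enough to be tested. Each gene is given by its brightest probe, and 8 of them had 1 probe.

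The series asks how loss of Pparg from the ureteric epithelium changes RNA in the fetal ureter, and holds 2 dual-colour oligonucleotide arrays. Array 1 compared ureter pools of female embryos and array 2 ureter pools of male embryos, all of the NMRI strain at E16.5 (embryonic day), and the dyes were exchanged between the arrays. On each array 1 pool had the genotype Pax2-cre/+; Pparg(fl/fl), called Pparg-cKO, and the other, the control, the genotype Pparg(fl/?), in which the second allele is not given. The Pax2-cre transgene acts in epithelia derived from the nephric duct, which include the ureteric epithelium, whereas whole ureters were pooled for RNA. Mesenchymal, muscle, vascular and nerve cells, in which this Cre is not expected to act, thus contributed to every value. In such RNA, fewer cells of a type and less RNA per cell cannot be told apart.

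Which pool a dye stands for was not settled by the labels. The RNA labelled with AlexaFluor647 (red) on array 1 and with AlexaFluor555 (green) on array 2 is named RNA A here, and its partner on the array RNA B. In lists of signals these are shortened to A and B. By the sample labels RNA A is the control, but if the deposited fold changes run as Pparg-cKO over control, as the series titles word it, RNA A is Pparg-cKO, since they followed RNA A over RNA B (Pearson's r of 0.997 across probes on each array). No pool was assigned to a genotype from a measured level. All ratios are log2 of RNA A over RNA B, and no ratio is read as a change in the mutant. Each array held 1 pool of each kind, so an effect of sex and an effect of dye cannot be told apart, and the number of arrays limits the precision of every value. The spread over the spots of a probe, 4 on each array before outliers were removed, is technical and does not stand for the spread between pools.

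For none of the 10 retinoic acid genes did RNA A and RNA B differ by more than the filter or the limma test required. No member differed at least 1.5-fold, the same way round on each array, with the brighter RNA at a signal of 100 or more. Of all genes with values, 0.157% met this with RNA A brighter and 0.23% with RNA B brighter. limma called 0 of the 10 at an adjusted p under 0.05, against 0.313% of the genes tested, and 0 of the 10 had an unadjusted p under 0.05, against 3.78%. The adjusted p was 1 for each of them. The signals of RNA A and RNA B overlapped for all 10, whereas in 24.2% of the genes tested both values of 1 RNA lay above both values of the other. That comparison sets signals of different arrays side by side as printed and leaves the pairing within an array aside. In the median, male signals stood 0.079 above female signals in log2. The median of the mean log2 ratio was 0.00058 over the 10 genes and 0.0067 over all genes tested, and 8 of the 10 means lay within 1.1-fold of equality. With 2 arrays the 95% intervals from limma were wide. They reached from 0.647-fold (Rarg) to 1.83-fold (Cyp26a1), so a change of moderate size in a member was not detectable at this precision.

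**Figure D1:**
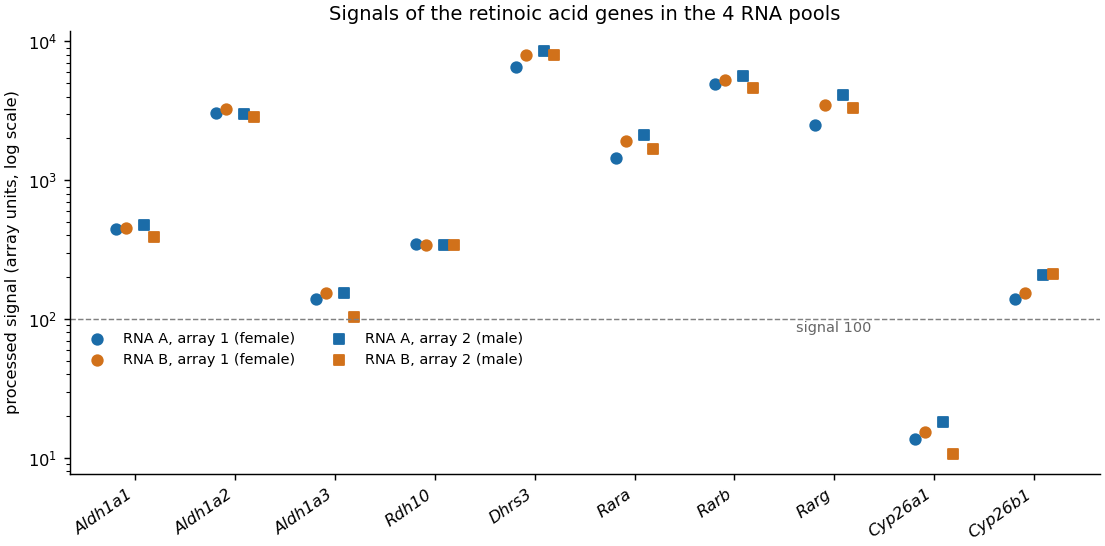
Processed signal (array units, log axis) of the brightest probe of each retinoic acid gene in the 4 pools, RNA A in blue and RNA B in orange, circles for array 1 (female) and squares for array 2 (male). Blue and orange marks of a gene overlap in height for all 10 genes, and Cyp26a1 lies below the dashed line at a signal of 100, with values from 10.71 to 18.1. Heights of different genes come from different probes and are not comparable.

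Retinal dehydrogenases oxidise retinal in the step that commits it to signalling, and Aldh1a2 is the member most used as a marker in the ureter. On array 1 the Aldh1a2 signal was 3057 (A) and 3258 (B), and on array 2 it was 2989 (A) and 2873 (B). The highest and the lowest of the 4 values both belonged to RNA B. On array 1 the log2 ratio was -0.092 (SD 0.010 over spots) and on array 2 it was 0.057 (SD 0.031), a mean of -0.017 ± 0.11 (SD, n = 2 arrays). The limma interval ran from -0.47 to 0.43, and the unadjusted p was 0.932. The probe lies on chromosome 9 at 71143931 to 71143990 of the mouse build mm9, on the plus strand.

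Aldh1a1 encodes another retinal dehydrogenase. Its signal was 442 (A) and 450 (B) on array 1, 474 (A) and 391 (B) on array 2. The female values were nearly equal, and the male RNA B pool was the lowest of the 4. The log2 ratio was -0.025 (SD 0.035 over spots) and then 0.28 (SD 0.067), with a mean of 0.13 ± 0.21 (SD, n = 2 arrays). In limma the unadjusted p was 0.548.

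Aldh1a3 encodes the third enzyme of this group. The signal was 140 (A) and 153 (B) on array 1, 154 (A) and 104 (B) on array 2. Here too the male RNA B pool was the lowest, while the other values lay close together. The log2 ratio of 0.57 on array 2 (1.48-fold, spots from 0.48 to 0.78) was the highest of the members with signals above 100, but on array 1 it was -0.13. The mean was 0.22 ± 0.49 (SD, n = 2 arrays), with a limma p of 0.36 before adjustment.

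RDH10 and DHRS3 set the supply of retinal in opposite directions. Rdh10, which makes retinal, had signals of 349 (A) and 340 (B) on array 1, 341 (A) and 342 (B) on array 2. The 4 values lay close together, and its mean log2 ratio was 0.019 ± 0.029 (SD, n = 2 arrays), with a limma interval from -0.43 to 0.47. Dhrs3, whose product returns retinal to retinol and which is itself induced by retinoic acid in many tissues, had signals of 6573 (A) and 7939 (B) on array 1. On array 2 the Dhrs3 signal was 8462 (A) and 8021 (B). The female RNA A pool stood lowest and the male RNA A pool highest, so the log2 ratio on array 1 was -0.27 and that on array 2 was 0.077. The mean for Dhrs3 was -0.098 ± 0.25 (SD, n = 2 arrays), with an unadjusted limma p of 0.647.

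Rarg and Rara gave the widest gaps between the arrays among the members with signals above 100. Rarg, the receptor best known from epithelia and cartilage, had signals of 2509 (A) and 3503 (B) on array 1. On array 2 the Rarg signal was 4136 (A) and 3326 (B). RNA A held both the lowest and the highest of the 4 values. On array 1 the log2 ratio was -0.48 (1.4-fold, SD 0.038 over spots), and on array 2 it was 0.31 (1.24-fold, SD 0.039), a mean of -0.084 ± 0.56 (SD, n = 2 arrays). The limma interval was -0.63 to 0.46.

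Rara, the broadly expressed receptor, went the same way as Rarg on both arrays. Its signal was 1441 (A) and 1927 (B) on array 1, 2098 (A) and 1666 (B) on array 2. Again RNA A was the lowest among the female pools and the highest among the male pools. The log2 ratios were -0.42 and 0.33, with a mean of -0.043 ± 0.53 (SD, n = 2 arrays). A further probe for Rara, 847 bases farther along the transcript, gave log2 ratios of -0.33 and 0.29, so both Rara probes changed sign between the arrays.

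Rarb, which is both a receptor and a direct target of retinoic acid, had 3 probes with differing ratios. They are shown by their last 30 of 60 bases, because the sequence tells which part of the transcript each reads; capitals mark AATAAA, the letters of the polyadenylation signal. The first begins at base 3084 of the transcript (mm9 chromosome 14, 17263367 to 17263426), the next at base 1803 (17264648 to 17264707) and the last at base 375 (17651424 to 17651483), all on the minus strand.
Rarb probe at base 3084: ttccatggagtctcctggcaaagAATAAAt
Rarb probe at base 1803: agttcaagtgggaatatagcagagcacagt
Rarb probe at base 375: ttctgtgtgattctggacctgtagtaatgt

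The Rarb probe at base 3084, which holds AATAAA, was the brightest. Its signal was 4894 (A) and 5272 (B) on array 1, 5597 (A) and 4630 (B) on array 2. The male pools lay outside the female pools on both sides, and the log2 ratios were -0.11 and 0.27, with a mean of 0.083 ± 0.27 (SD, n = 2 arrays). The unadjusted limma p for Rarb was 0.697.

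At base 1803 the Rarb signal was 1020 (A) and 774 (B) on array 1, 952 (A) and 935 (B) on array 2. On this probe RNA A was the brighter on both arrays and the RNAs did not overlap, with log2 ratios of 0.40 (SD 0.013 over spots) and 0.027 (SD 0.034). The second of these ratios was smaller than the spread over spots. On array 1 the 2 bright Rarb probes therefore differed in sign, by far more than their spots did. The probe at base 375, which lies well upstream of the others in the genome, had signals between 6.33 and 7.53 in the 4 pools. Its spots were well above background in the green channel alone (3 of 3 spots on array 1 and 4 of 4 on array 2), and 0 spots were in the red channel.

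The letters AATAAA were found in 5 of the 13 member probes (38.5%), those of Aldh1a3, Dhrs3, Rarg, 1 of Rara and 1 of Rarb, and in 12.6% of all probes of the array. The signal is usually found close to the 3′ end of a transcript. Matches between brightest probes of related members were short. The longest run of bases shared was 7 for Rarb with Rarg, 5 for Rara with Rarb and 5 for Rara with Rarg (brightest probes, of 60 bases each).

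The promoters of Rarb and Cyp26a1 hold the letters of a classical retinoic acid response element, shown here because these genes serve as readouts of retinoic acid signalling. Such elements are direct repeats of a 6-base half-site. The half-site searched was the consensus AGGTCA, or the variant AGTTCA as seen in many natural elements, or the variant GGTTCA found in that of Rarb, or else GGGTCA as a further variant. The search covered both strands for pairs in the same orientation, 5 bases apart, in RefSeq promoter windows from 250 bases before to 50 bases after a gene's start (assembly GRCm38.p6). Capitals mark the half-sites. The Rarb stretch is read on the gene's own strand (chr14:16575506-16575535, minus strand), and its repeat lies 53 to 37 bases before the start. The Cyp26a1 stretch is read on the strand opposite to the gene (chr19:37697769-37697798, minus strand), and its repeat lies 32 to 16 bases before the start.
Rarb promoter: gggaagGGTTCAccgaaAGTTCActcgcat
Cyp26a1 promoter: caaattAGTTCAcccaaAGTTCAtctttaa

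Such a pair stood in 32 of 32851 promoter windows (0.0974%). Of the 10 members 8 had at least 1 window, and Rarb and Cyp26a1 were the 2 with a match. Because the variant GGTTCA was searched for being in the Rarb element, the Rarb match was set in advance. The Cyp26a1 pair is made of 2 copies of AGTTCA, a variant searched for being seen in natural elements. Neither match is a result to weigh against the share of all windows. Pairs spaced by 1 base (0.222% of windows), the arrangement PPARG and RXR bind, or by 2 bases (0.268%), which RARs can also use, were found in 0 member windows. A match is a description of the letters, and these data do not measure binding.

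Cyp26a1, the breakdown enzyme that retinoic acid induces most directly, was read close to background. Its signal was 13.7 (A) and 15.3 (B) on array 1, 18.1 (A) and 10.71 (B) on array 2. On array 1 the Cyp26a1 spots spread from -0.43 to 0.33 in log2 ratio, wider than their mean of -0.16. On array 2 the ratio was 0.76 (1.69-fold, spots from 0.62 to 0.93), but 2 of 4 spots in the dimmer male RNA B pool were well above background. The mean was 0.30 ± 0.65 (SD, n = 2 arrays), with an unadjusted limma p of 0.271, the lowest of the 10. With normexp background correction and loess the mean was 0.093. Rarb and Cyp26a1, the pair with the response element, were both below 0 on array 1 and above 0 on array 2, as were 6 other members.

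Cyp26b1, the other breakdown enzyme, had signals of 140 (A) and 154 (B) on array 1, 207 (A) and 211 (B) on array 2. RNA A was slightly dimmer on both arrays, and Cyp26b1 was the 1 member with the same sign on both. The log2 ratios were -0.13 (SD 0.10 over spots) and -0.031 (SD 0.063), so the ratio on array 2 lay inside the spread of its spots. The mean was -0.080 ± 0.070 (SD, n = 2 arrays), and the limma interval ran from -0.53 to 0.37. Both male values of Cyp26b1 stood above both female values.

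**Figure D2:**
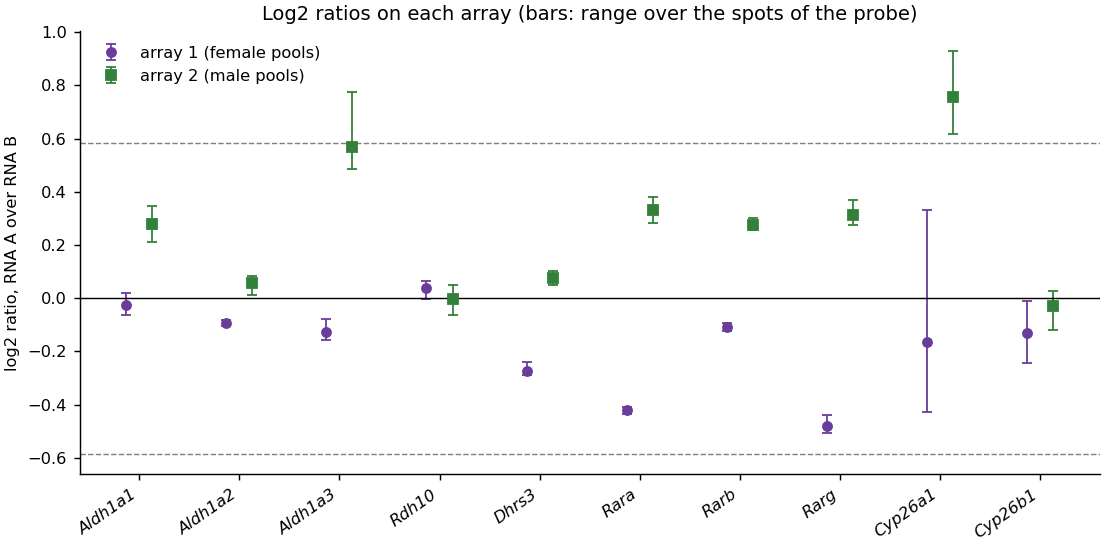
Log2 ratio of RNA A over RNA B for each retinoic acid gene on array 1 (purple circles, female pools) and array 2 (green squares, male pools), with bars for the range over the spots of the probe and dashed lines at 1.5-fold. Rara and Rarg lie between -0.48 and -0.42 on array 1 and between 0.31 and 0.33 on array 2, and Rdh10 lies near 0 on both.

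Seen together, the log2 ratios of most members changed sign between the arrays. The log2 ratio was below 0 on array 1 and above 0 on array 2 for 8 of the 10 genes, that is, the green channel was the brighter on both arrays. Over all genes tested this held for 32.6%. For 6 of the 10 (Aldh1a2, Aldh1a3, Dhrs3, Rara, Rarb, Rarg) both ratios were also larger than the SD over spots, against 23.8% of the genes tested. The reverse pattern, with the red channel the brighter on both arrays, was seen in Rdh10, against 28.4% of the genes tested, and there the ratio on array 2 was -0.0020. The same sign on both arrays was found for Cyp26b1, against 39% of the genes tested, and beyond the SD over spots for 0 members, against 22.7%. For the 10 genes the log2 ratios had a median of -0.13 on array 1 and 0.28 on array 2, where the medians of all genes tested were -0.00038 and 0.025. The green channel carried RNA B of the female pools and RNA A of the male pools, so a dye effect and an opposite difference in the sexes cannot be told apart here.

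**Figure D3:**
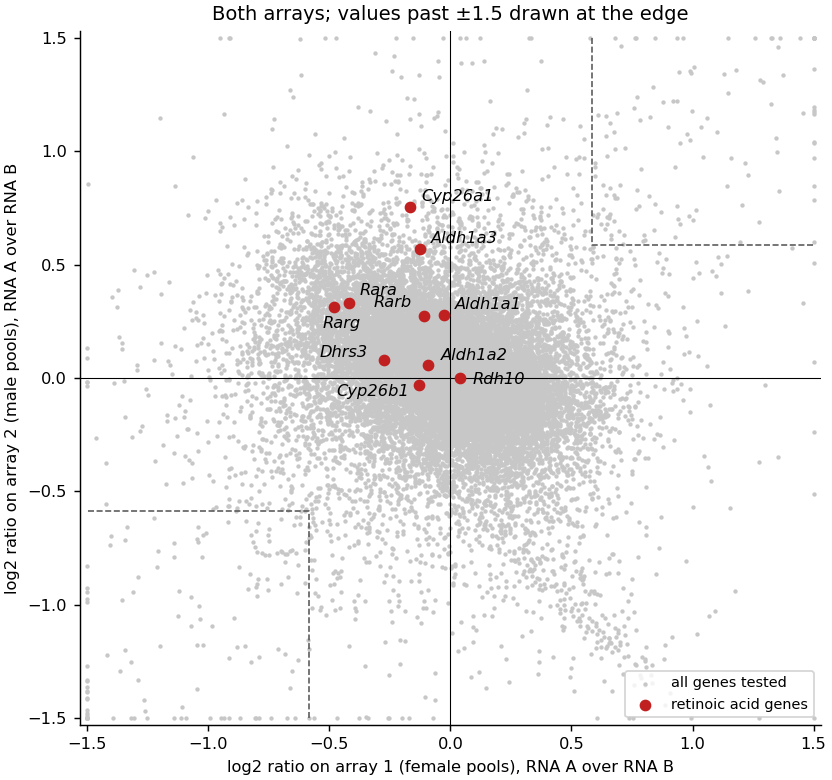
Log2 ratio of RNA A over RNA B on array 1 (horizontal) and array 2 (vertical) for the genes tested (grey, 121 of them drawn at the edge of the plot) and the 10 retinoic acid genes (red), with dashed corners where both arrays pass 1.5-fold one way. The upper left corner, below 0 on array 1 and above 0 on array 2, holds 8 of the 10 red points, and neither dashed corner holds any.

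The rest of the pathway was read through 56 further genes in 4 lists, 46 of which were bright enough to be tested. The 1.5-fold filter passed 0 of the 56 in either direction, against 0.157% (RNA A brighter) and 0.23% (RNA B brighter) of all genes with values. limma called 0 of the 46, against 0.313% of the genes tested. At such shares, counts of 0 in lists of this size say little about the pathway. An unadjusted p under 0.05 in limma was found for 3 of the 46 (Aldh1a7, Adh1 and Ttr), against 3.78% of the genes tested. All 3 were brighter in RNA B on each array. Of the genes tested, 39% had the same sign on both arrays, in either RNA, and 32.6% had the green channel brighter on both.

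Among 14 tested retinol and retinal dehydrogenases beyond the members, 3 were brighter in RNA A on each array, 4 were brighter in RNA B on both, and the median of the mean log2 ratios was 0.013. Aldh1a7, which is the closest relative of Aldh1a1 in the mouse, had signals of 839 (A) and 1225 (B) on array 1, 923 (A) and 1344 (B) on array 2. RNA A stood below RNA B in both sexes without overlap, by log2 ratios of -0.55 and -0.54. The mean was -0.54 ± 0.0025 (SD, n = 2 arrays), with a limma interval from -0.99 to -0.10 and an adjusted p of 0.971. The longest run shared by the Aldh1a7 and Aldh1a1 probes was 8 of 60 bases.

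Adh1, an alcohol dehydrogenase that can oxidise retinol, went the same way. Its signal was 16919 (A) and 22957 (B) on array 1, 15724 (A) and 23937 (B) on array 2. Both RNA A pools lay below both RNA B pools, with log2 ratios of -0.44 and -0.61 and an adjusted limma p of 1. At the other end of this list, Dhrs7 had a mean log2 ratio of 0.20 and Dhrs4 of 0.10.

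**Figure D4:**
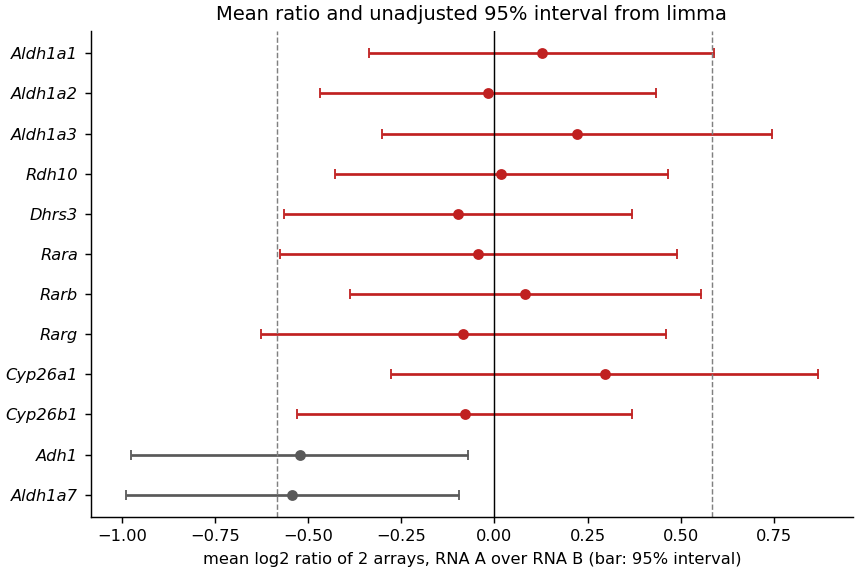
Mean log2 ratio of RNA A over RNA B over 2 arrays with the unadjusted 95% interval from limma, for the 10 retinoic acid genes (red) and for Aldh1a7 and Adh1 (grey), with dashed lines at 1.5-fold. The intervals of the red genes all span 0, and those of Aldh1a7 (-0.99 to -0.10) and Adh1 (-0.98 to -0.07) lie below it.

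Smooth muscle markers ran beside Aldh1a7 and Adh1. Of 7 markers (Acta2, Tagln, Myh11, Actg2, Cnn1, Myocd, Des), 6 were brighter in RNA B on each array, their median log2 ratios on the arrays were -0.44 and -0.69, and limma called 0. Their summed signal was 77447 (A) and 98639 (B) on array 1, 73776 (A) and 129071 (B) on array 2. Nephron markers moved likewise, with 4 of 5 tested genes brighter in RNA B on each array. Urothelial markers were mixed, with 5 of 11 brighter in RNA B on both arrays. Among these were the uroplakins Upk3a, past the 1.5-fold filter at -0.64 and -0.77, Upk1b at -0.55 and -0.67, and Upk2 at -0.40 and -0.74. Krt5 was brighter in RNA A on both (0.26 and 0.67). The green channel was the brighter on both arrays for 4 urothelial markers, and the red for 1. Over all genes tested, 39% had the same sign on both arrays, in either RNA. The part of smooth muscle, nephron and urothelial cells in the Aldh1a7 and Adh1 values was not tested. Of the fibroblast and lamina propria markers, 1 of 7 was brighter in RNA A on each array, 1 in RNA B on both, and the median of the mean log2 ratios was -0.017.

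The list of retinoid transport and storage had 11 tested genes, of which 4 were brighter in RNA A on each array and 3 in RNA B on both, with a median of the mean log2 ratios of -0.028. Crabp1, a retinoic acid binding protein of the cytoplasm, had signals of 3129 (A) and 2589 (B) on array 1, 3546 (A) and 2569 (B) on array 2. Both RNA A pools lay above both RNA B pools, with log2 ratios of 0.27 and 0.47, a mean of 0.37 ± 0.14 (SD, n = 2 arrays) and an adjusted limma p of 1. Bco2, which cleaves carotenoids, had a mean of 0.26 at signals below 20, since its 4 values ran from 13.4 to 16.6, and 0.11 with normexp background correction and loess.

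Ttr, the plasma carrier that holds retinol binding protein in blood, stood lowest of this list. Its signal was 304 (A) and 385 (B) on array 1, 92.2 (A) and 298 (B) on array 2. The male RNA A pool was far below the other 3, and the log2 ratios were -0.34 and -1.69, with an adjusted limma p of 0.614. Lrat, which stores retinol as an ester, had log2 ratios of -0.077 and -0.62.

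The liver markers (Alb, Afp, Apoa1, Apoa2, Serpina1a and Ttr itself) lay on the same side as Ttr on array 2 but mostly not on array 1. On array 2 the log2 ratios of all 6 were below 0, from -1.69 (Ttr) to -0.92 (Serpina1a). On array 1 those of Alb (0.36), Apoa1 (0.33), Apoa2 (0.47) and Serpina1a (0.17) were above 0, and those of Ttr (-0.34) and Afp (-0.10) below. The summed signal of the 6, Ttr included, was 10588 (A) and 9206 (B) on array 1, 3801 (A) and 8918 (B) on array 2, lowest in the male RNA A pool. What liver RNA and urothelial cells each add to the Ttr value was not tested.

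The RXR partners and cofactors comprised 12 genes, all tested. The green channel was the brighter on both arrays for 6, 2 were brighter in RNA B on both and 0 were brighter in RNA A on both, and the median of the mean log2 ratios was -0.15. Rxrb had signals of 1082 (A) and 1737 (B) on array 1, 1874 (A) and 1686 (B) on array 2. Like Rarg it was lowest in the female RNA A pool and highest in the male RNA A pool, with log2 ratios of -0.68 and 0.15. The coactivator Ncoa3 had log2 ratios of -0.50 and 0.46. Rxra gave low signals on its brightest probe, from 39.4 to 48.6, and its mean log2 ratio was -0.017 ± 0.26 (SD, n = 2 arrays), or -0.15 with the mean over all its probes.

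Rxrg could not be read with one voice. Its brighter probe had signals of 7557 (A) and 5448 (B) on array 1, 3921 (A) and 7973 (B) on array 2, with log2 ratios of 0.47 and -1.02. Its other probe, which lies 128 bases farther along the transcript, had signals from 31.7 to 40.9 and log2 ratios of -0.30 and -0.042. The ratios of the brighter Rxrg probe were near those of the liver gene Apoa2, which were 0.47 and -1.06, and the source of its signal was not tested.

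Genes known to respond to retinoic acid included 9 that were tested, with a median of the mean log2 ratios of -0.024. Of these, 5 had the green channel brighter on both arrays, 0 were brighter in RNA A on each array and 2 in RNA B on both. Ret, the receptor tyrosine kinase of the ureteric bud whose expression depends on retinoic acid, had signals of 71.9 (A) and 77.0 (B) on array 1. On array 2 Ret had 90.9 (A) and 48.9 (B), so its log2 ratio was -0.099 in the female and 0.90 in the male pools. Rarres1, named for its response to retinoic acid, had signals of 86.2 (A) and 76.8 (B) on array 1, 69.9 (A) and 78.5 (B) on array 2, and its mean log2 ratio was 0.00028 ± 0.23 (SD, n = 2 arrays). Hoxb5 had log2 ratios of -0.66 and -0.035, and Tgm2, a transglutaminase induced by retinoic acid, of -0.35 and 0.072. In limma the adjusted p of Ret, Rarres1, Hoxb5 and Tgm2 was 1.

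**Figure D5:**
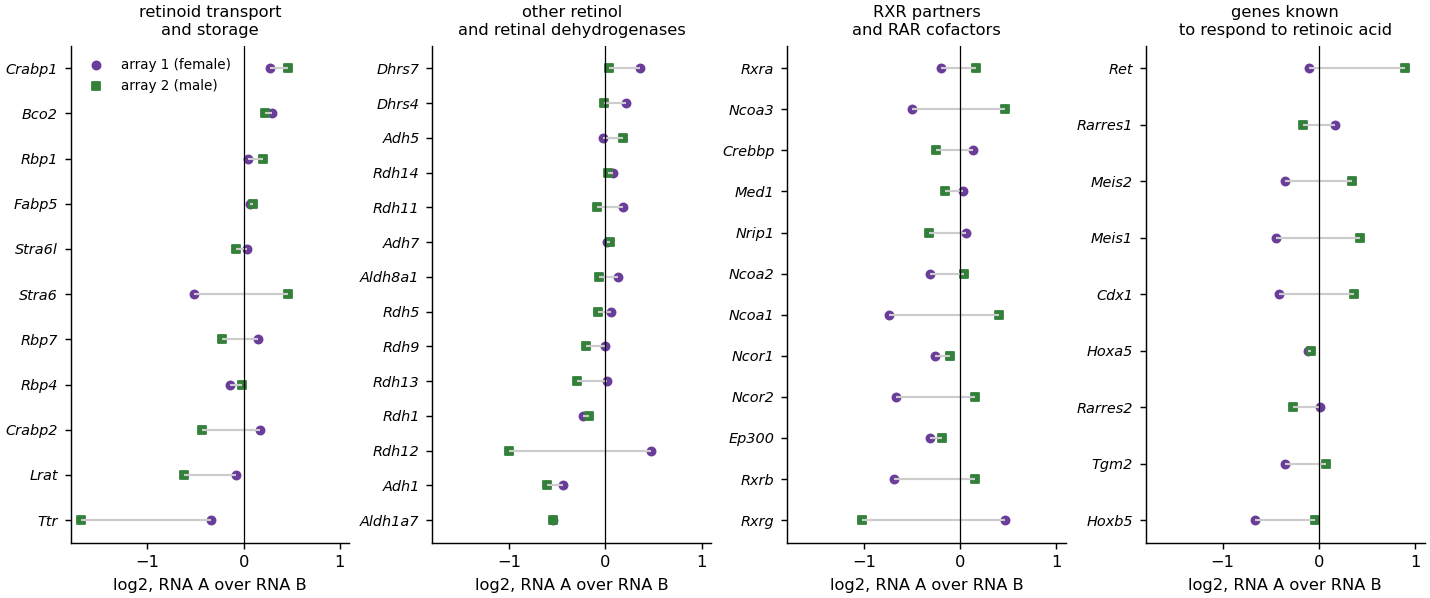
Log2 ratio of RNA A over RNA B on array 1 (purple circles, female pools) and array 2 (green squares, male pools) for the tested genes of the 4 further lists, ordered by their mean and joined by a grey line. Aldh1a7, Adh1 and Ttr lie left of 0 on both arrays, and the points of most cofactors fall on either side of 0.

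The targeted gene Pparg had signals of 11295 (A) and 7430 (B) on array 1, 12888 (A) and 7872 (B) on array 2, brighter in RNA A on each array by log2 ratios of 0.60 and 0.71. Its probe begins at base 1562 of the transcript, and whether it reads the deleted exons 2 and 3 was not analysed, so it does not settle the dyes. As markers of the tissue, uroplakin Upk3a (30472 to 51988) and smooth muscle Acta2 (39606 to 72555) were bright in all 4 pools. Of other marker lists, collecting duct held Fxyd4 past the 1.5-fold filter (log2 ratios 0.77 and 1.56), germ cells held Prm1 (5.08 and 5.77), and 0 genes passed among smooth muscle, fibroblast, nephron, liver, gonad and adrenal steroidogenic, endothelial, macrophage, red blood cell, and neuron and glia markers. Other tested germ cell markers had far smaller ratios, 0.20 and 0.13 for Ddx4 and 0.12 and 0.11 for Tnp1. Dazl (0.30 and -0.29) and Prm2 (0.39 and -0.038) changed sign between the arrays. limma called Prm1 and the nephron gene Slc34a1 (log2 ratios -2.31 and -3.15, signals from 4.197 to 37.2). Macrophage markers were brighter in RNA A on each array for 6 of 6, with median log2 ratios of 0.22 and 0.13. For 39% of the genes tested the sign was the same on both arrays, in either RNA, and limma called 0 of the macrophage markers. Neuron and glia markers had the green channel brighter on both arrays for 5 of 6, against 32.6% of the genes tested, with medians of -0.069 and 0.36. The same pattern was seen in 8 of the 10 retinoic acid genes, and the part of neuron and glia cells in it was not tested.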

How the data were processed

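RNA of pooled E16.5 mouse ureters was measured on 2 dual-colour arrays with Agilent Feature Extraction 10.7.3.1 and mm9 positions, per the file headers. The deposited processed intensities had been corrected for background and for dye (linear, then LOWESS), so ratios of dim probes depend on that step. As a check on the dyes, the log10 ratio (red over green) that the authors deposited was set against the processed signals, and matched within 0.001 for 88.9% of spots. The deposited series table of signed fold changes (a score with no value between -1 and 1) has no stated direction. Its correlation with RNA A over RNA B was 0.997 on both arrays, and it was used as an alternative. It holds values of single arrays, not tests. The stage label of the second channel reads E14.5, while titles and protocol read E16.5.

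Control spots (17263 per array) and flagged spots (5705 and 5579) were left out, log2 intensities were averaged over spots, and a gene was represented by its brightest probe. Probes were named through RefSeq (28328 of 39429), and 11101 kept the name in the file. limma 3.58.1 (lmFit with an intercept, eBayes, Benjamini-Hochberg adjustment at 0.05, R 4.3.3) ran on 21429 genes for which 1 RNA or both had at least 0.5 of kept spots well above background, on each array. The filter on intensity and fold change named in the methods was read as 1.5-fold one way round on each array, the brighter RNA at 100 or more. Alternatives were normexp correction (offset 50) with loess, loess on processed signals, median centring, the deposited table, other probe, spot, intensity and fold rules, an intensity trend and leaving out each array. The fit was tested on simulated data. The members, the 4 pathway lists and the 12 marker lists were chosen with earlier results of these data known. Named were all members, genes of the pathway lists past a threshold, the 2 highest and 2 lowest of each list, marker genes past the filter and Pparg. Other genes were named after their values were seen. One gene of the pathway lists is not reported here.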

Additional observations from a re-analysis of the deposited data

Results flagged for a closer look

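Among the members, 6 had log2 ratios of opposite sign on the 2 arrays, each larger than the SD over the spots of its probe, so female and male pools moved in opposite directions. The difference was not tested, since each sex had 1 array, and dye and sex cannot be told apart. The female minus male difference in log2 ratio of RNA A over RNA B was -0.80 for Rarg, -0.75 for Rara, -0.70 for Aldh1a3, -0.38 for Rarb, -0.35 for Dhrs3 and -0.15 for Aldh1a2. All 6 differences had the same direction. The further probe of Rara gave ratios of -0.33 and 0.29, and the Rarb probe at base 1803 gave 0.40 and 0.03, unlike the brightest Rarb probe.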

How the results depend on the processing

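No paired analysis was possible because each array already pairs 1 pool of either RNA, so the log2 ratio is the paired value and no block is left. The mean log2 ratio of all 10 members kept its sign in 6 other settings with both arrays, and the adjusted p was 1 in each. limma called 0 members in every setting run, and the 1.5-fold filter passed 0 members in every setting run, single arrays included. Members with the same sign beyond the spots rose from 0 to 1 with the mean over all probes (Rarb). Members with the green channel brighter on both arrays numbered 8 under 5 settings, chosen after seeing the data, and 7 with the mean over all probes. Of the further pathway genes, 0 in the main count became 1 in RNA A (Hoxb1) and 1 in RNA B (Rdh7) with no intensity threshold, both near background, and 1 in RNA B with 1.5-fold in the mean (Ttr). On single arrays 0 passed in RNA A and between 4 and 5 in RNA B. Leaving out each array in turn changed the sign of 9 members. The lowest and highest values were -0.025 and 0.28 for Aldh1a1, -0.092 and 0.057 for Aldh1a2, -0.13 and 0.57 for Aldh1a3, -0.0020 and 0.039 for Rdh10, -0.27 and 0.077 for Dhrs3, -0.42 and 0.33 for Rara, -0.11 and 0.27 for Rarb, -0.48 and 0.31 for Rarg, and -0.16 and 0.76 for Cyp26a1. Of the other named genes they were -0.50 and 0.46 for Ncoa3, -0.20 and 0.17 for Rxra, -0.68 and 0.15 for Rxrb, -1.02 and 0.47 for Rxrg, -0.099 and 0.90 for Ret, -0.35 and 0.072 for Tgm2, and -0.011 and 0.21 for Dhrs4. Rarres1, whose mean was 0.00028, gave -0.17 and 0.17 on single arrays, -0.0029 with normexp and loess, -0.0071 with loess on processed signals and -0.012 with median centring. Ncoa3 turned to 0.066 with the mean over all probes. Other means moved by over 1.5 times with their sign kept: Bco2 from 0.26 to 0.11 and Rara from -0.043 to -0.068 with normexp and loess, Rxra from -0.017 to -0.15 with the mean over all probes, and with median centring Rdh10 from 0.019 to 0.0061 and Aldh1a2 from -0.017 to -0.030. The causes were not tested.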

Other observations

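Cyp26b1 differed between the arrays more than between the RNAs. Relative to the median of all genes tested, its mean log2 signal was 0.43 higher in the male than in the female pools (1.35-fold), 0.48 higher in RNA A and 0.38 higher in RNA B. At least this much higher in the male pools were 2.09% of the genes tested, and both male values lay above both female values for 12.4% of them. Of the 10 members Cyp26b1 was the 1 with both male values above, and Aldh1a2 and Rdh10 were the 2 with both female values above, by 1.14-fold and 1.07-fold, against 15.8% of the genes tested. These comparisons are relative to the median of all genes, and for Rdh10 they hold in that form alone: as printed, its female RNA B signal (340) lay below both male signals (341 and 342). Each sex had 1 array, so sex and array cannot be told apart and no test was made. The sex labels were checked with Xist (1980 and 1651 in the female pools, 3.06 and 2.43 in the male) and Ddx3y (10.9 and 16.7 in the female, 4794 and 4396 in the male). Nr5a1, a marker of gonad and adrenal steroidogenic cells, had 100.6 and 84.1 in the female and 66.8 and 131 in the male pools, and its mean difference was -0.056.

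The brighter probe of Rxrg and the probe of Rdh12, a retinal reductase on another chromosome, gave almost the same ratios and signals. For Rdh12 the signal was 7548 (RNA A) and 5444 (RNA B) for the female and 4001 (RNA A) and 8016 (RNA B) for the male pools, with log2 ratios of 0.47 and -1.003. The longest run of bases the Rxrg and Rdh12 probes share was 8 of 60. Rdh12 was named after its values were seen.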
